A study of Mus musculus with 6 samples.

Results

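Wnt ligands, their Frizzled receptors and the proteins that pass on or restrain the signal were followed in the ventral dentate gyrus, part of the hippocampus, of male mice of the strain C57black 6. The 56 genes were taken from a list of symbols among the 24062 gene symbols of the count tables, and all 56 matched 1 annotated gene each. 3 libraries came from unstressed controls and 3 after chronic restraint stress, in which animals are held in place repeatedly. The replicates are called biological by the submitters, who name no age, duration of stress or number of animals per library in the sources used here. The p-values therefore measure the spread between these libraries. The comparison asks which Wnt genes differ in level after stress.

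Wnt proteins are secreted ligands that receive a lipid from the enzyme Porcn. At the surface of a receiving cell they bind a Frizzled receptor (Fzd genes) and a co-receptor, Lrp5 or Lrp6, and Dishevelled (Dvl genes) then stops a complex of Axin, Apc and Gsk3 from marking beta-catenin (Ctnnb1) for destruction. Beta-catenin that escapes binds TCF and LEF factors on target genes. In the adult dentate gyrus, Wnt signals are known to promote the birth of new granule neurons, and Wnt ligands that act without beta-catenin shape dendrites and synapses.

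Each library held 8305753 to 10107953 counts in genes, and the Wnt genes made up 0.278% to 0.295%. Levels are given as CPM, counts scaled to a common library total, after trimmed mean of M values (TMM) scaling, and levels of different genes are compared only as CPM per kilobase of merged exons. Dentate granule markers such as Prox1 were present in all libraries, and the 10 markers summed to 738 CPM in stress library 1 and 1046 to 1436 CPM in the other libraries. Stress library 1 stood apart from the rest. A chi-square of gene counts, divided by its degrees of freedom, was 16.3 to 19.5 between it and each other library and 2.97 to 8.46 among the other 5. The 12 choroid plexus markers, all highest there, summed to 4897 CPM in stress library 1 and 26.4 to 34.1 CPM in the other libraries, the 8 ependymal markers to 99.1 CPM in stress library 1 and 10.3 to 13.5 CPM in the other libraries, and the 10 striatal markers to 629 CPM in stress library 1 and 71.2 to 99.4 CPM in the other libraries. The 8 markers of CA3 pyramidal neurons were also all highest there. Their sum was 870.0 to 1016 CPM in controls and 1067 to 1625 CPM in stress, so that the sum of every stress library was above every control. Taken singly, only 1 of the 8, Cdh24, had all stress libraries above all controls, and 0 had all below. The 8 oligodendrocyte markers summed to 4470 CPM in stress library 1 and 1862 to 2929 CPM in the other libraries. Of these 8, 7 were highest in stress library 1. Values without that library are given beside many of the results, and for members that depended strongly on 1 library the range with each library left out in turn is given. In bulk tissue, fewer cells of a type and less RNA per cell cannot be told apart.

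None of the Wnt genes passed the test for stress against control. 39 of the 56 had enough counts to be tested, and 0 of the 39 passed at an adjusted p of 0.05 by edgeR's quasi-likelihood test, where 4 of 14058 genes, or 0.0285%, passed, all of them lower. DESeq2 and limma-voom also called 0 of the 39, against 0.761% and 0.00711% of all genes. At an unadjusted p under 0.05, 6 of the 39 stood out by edgeR, against 8.71% of all tested genes. By DESeq2 they were 4, against 6.15% of all genes, and by limma-voom 6, against 8.48%. Of the 6, Wnt2 was higher, where 3.86% of all genes were, and Wnt5a, Wnt10a, Fzd1, Fzd3 and Fzd8 were lower, where 4.85% were. Without control library 3 edgeR's count was 1, against 5.83% of all genes. It ran from 4 to 7 without any other library, against 6.04% to 11.5%. The 3 stress libraries lay on one side of the 3 controls for 10 of the 39, where 14.6% of all tested genes did so. 2 of these were higher, Wnt2 and Fzd5, against 6.76% of all genes, and 8 were lower, against 7.84%. The 8 were Wnt5a, Wnt5b, Wnt10a, Fzd1, Fzd3, Fzd9, Axin2 and Tcf7. The median log2 fold change was -0.041 over the 39 and 0.0038 over all tested genes, and 25 of the 39 were below 0, as were 49.0% of all tested genes.

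**Figure D1:**
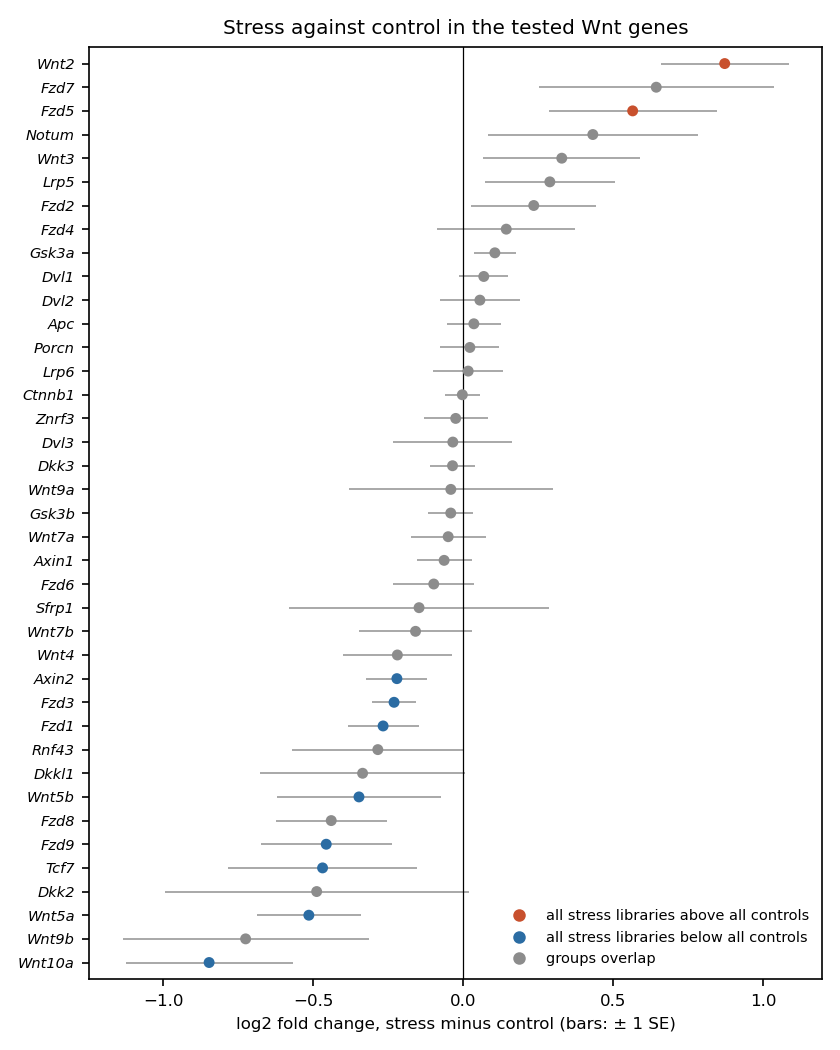
Log2 fold change of stress minus control by edgeR for the 39 tested Wnt genes. Bars are 1 standard error by limma-voom, from 3 libraries a group. Orange points mark genes with all stress libraries above all controls, blue points those with all below, and grey points those whose groups overlap. Wnt2 is the highest at 0.87 and Wnt10a the lowest at -0.85, and 22 of the 39 lie within 0.25 of 0.

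Among the ligands, Wnt7b had the highest level per kilobase. Its 9.45 ± 0.431 CPM per kilobase in controls (SD, n = 3) made up 39.1% ± 2.95 of the summed level of all 19 Wnt ligands. Wnt7a followed at 3.61 ± 0.325 and Wnt4 at 2.24 ± 0.197 CPM per kilobase, and the control ranges of these 3 did not overlap. Wnt10a, Wnt5a, Wnt9a and Wnt2 came next, from 1.46 to 1.91 CPM per kilobase. Wnt5b, Wnt3 and Wnt9b lay below at 0.296 to 0.647 CPM per kilobase. Of the 10 tested ligands, 2 had log2 fold changes above 0 and 8 below, with a median of -0.19. The summed ligand level was 24.2 ± 0.846 CPM per kilobase in controls and 22.3 ± 2.49 in stress. Only stress library 1, at 19.5, was below the controls, which ran from 23.2 to 24.8, and stress libraries 2 and 3 were at 23.4 and 24.1. The other 9 ligands had too few counts to be tested. Wnt1 was at 0 counts in all 6 libraries, which allows up to 0.294 to 0.363 CPM per library for counting error only. Wnt3a, a ligand long used to study neurogenesis here, had 0 to 1 counts per library and Wnt8a 0 to 1. Wnt8b had 0 to 4, Wnt6 0 to 5, Wnt2b 3 to 6 and Wnt10b 2 to 8 counts per library. Wnt11 had 0, 0 and 0 counts in controls and 7, 1 and 1 in stress, and Wnt16 had 7, 12 and 9 counts in controls and 1, 6 and 7 in stress.

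**Figure D2:**
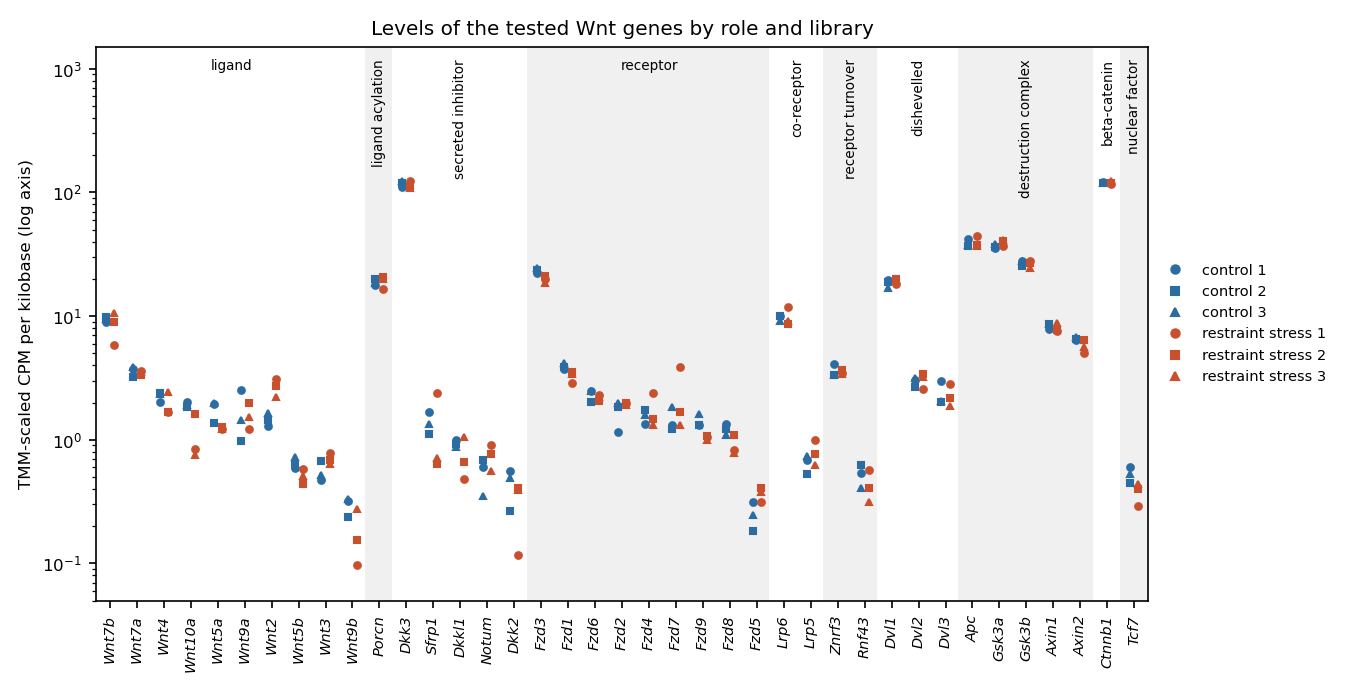
TMM-scaled CPM per kilobase of merged exons (log axis) for the 39 tested Wnt genes, grouped by role and ordered within a role by their control mean, with 1 mark per library. Ctnnb1 and Dkk3 are highest, near 120.1 and 118 CPM per kilobase in controls, and Fzd3 stands above the other Frizzled genes.

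Wnt2, a ligand of the beta-catenin branch, was the member with the smallest p. It lies on chromosome 6 from 17988940 to 18030585 and was measured at 2.90, 3.23 and 3.72 CPM in control libraries 1, 2 and 3 and 6.98, 6.16 and 4.98 CPM in stress libraries 1, 2 and 3. Every stress library was above every control. The mean was 3.28 ± 0.411 CPM in controls and 6.04 ± 1.0 CPM in stress (SD, n = 3). This is a difference of 0.87 on the log2 scale (SE 0.21), or 1.83 times the control level. The adjusted p by edgeR was 0.281, so the difference did not pass over all genes, and without stress library 1 the log2 fold change was 0.75. These levels rest on 24 to 64 counts per library.

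Wnt5a, best known for signals that do not use beta-catenin, was measured at 15.2, 10.7 and 15.5 CPM in control libraries 1, 2 and 3 and 9.48, 9.88 and 9.55 CPM in stress libraries 1, 2 and 3. The 3 stress libraries lay close together, and control library 2 was only just above them. Stress minus control was -0.51 on the log2 scale (SE 0.17), and edgeR gave an adjusted p of 0.450. Wnt5a lies on chromosome 14 from 28504750 to 28527448, and its exons overlap the antisense gene Gm2670, whose reads may be shared with it since the strand setting of the counting is not given. Its close relative Wnt5b was at 1.57, 1.66 and 1.91 CPM in controls and 1.53, 1.16 and 1.35 CPM in stress, a log2 fold change of -0.35 (SE 0.27). The lowest control of Wnt5b and the highest stress library differed by less than the spread within either group.

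Wnt10a, on chromosome 1 from 74791516 to 74804179 and a ligand of the beta-catenin branch, was at 4.96, 4.50 and 4.68 CPM in controls and 2.07, 3.95 and 1.87 CPM in stress. Stress libraries 1 and 3 were far below every control, while stress library 2 was close to the lowest control. The log2 fold change of -0.85 (SE 0.28) was the lowest among the tested members, with an adjusted p of 0.503 by edgeR. Without stress library 2 it was -1.25, with an adjusted p of 0.141 by edgeR. Over the libraries left out 1 at a time it ran from -1.25 to -0.64, with edgeR adjusted p-values of 0.141 to 0.835. The Wnt10a levels rest on 18 to 46 counts per library. Wnt7b, known to promote dendrite growth, was at 44.0, 48.2 and 46.6 CPM in controls and 28.6, 43.7 and 52.1 CPM in stress. Only stress library 1 was low, and the log2 fold change of -0.16 (SE 0.19) became 0.051 without it. Wnt7b exons overlap the antisense gene AU022754. Wnt7a was at -0.050 (SE 0.13) and Wnt4 at -0.22 (SE 0.18) on the log2 scale, with groups that overlapped. So did those of Wnt3 at 0.33 (SE 0.26), Wnt9a at -0.041 (SE 0.34) and Wnt9b at -0.73 (SE 0.41). With 1 library left out, Wnt4 ran from -0.43 to -0.12, Wnt3 from 0.23 to 0.50 and Wnt9b from -1.22 to -0.43, and Wnt9a changed sign, from -0.31 to 0.39. The acyltransferase gene Porcn, at 18.7 ± 1.02 CPM per kilobase in controls, had a log2 fold change of 0.022 (SE 0.10).

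**Figure D3:**
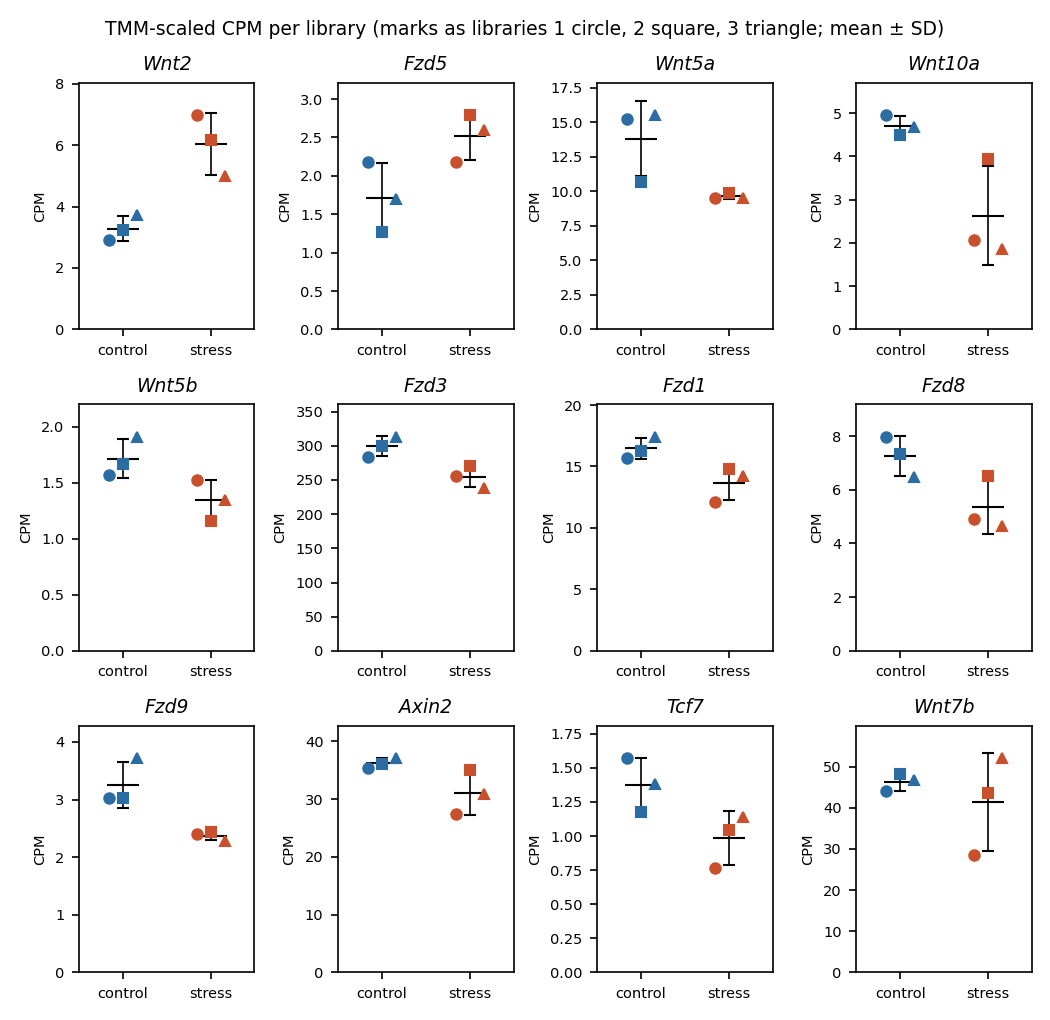
TMM-scaled CPM in each library for 12 Wnt genes, with control libraries in blue and stress libraries in orange, black lines for the mean and bars of 1 SD over 3 libraries, each axis starting at 0. Wnt2 and Fzd5 have all stress libraries above all controls, Fzd8 and Wnt7b have groups that overlap, and the other 8 have all stress libraries below all controls.

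The receptors were led by Fzd3, which acts in axon guidance and planar polarity. It held 62.5% ± 0.827 of the summed Frizzled level per kilobase in controls and 59.1% ± 2.93 in stress (SD, n = 3). Fzd3 was measured at 284, 300.0 and 313 CPM in control libraries 1, 2 and 3 and 256, 270.0 and 239 CPM in stress libraries 1, 2 and 3. All 3 stress libraries lay below all controls, with means of 299 ± 14.7 CPM in controls and 255 ± 15.6 CPM in stress. The log2 fold change of -0.23 (SE 0.07) is 0.85 times the control level, and edgeR gave an adjusted p of 0.449. Without stress library 1 it was -0.23 with an adjusted p of 0.244, and over the libraries left out 1 at a time it ran from -0.27 to -0.18. Fzd3 lies on chromosome 14 from 65192449 to 65262463.

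Fzd1, the next in level per kilobase at 3.92 ± 0.209 CPM, was at 15.7, 16.3 and 17.4 CPM in controls and 12.1, 14.8 and 14.2 CPM in stress. All stress libraries were lower, at -0.27 on the log2 scale (SE 0.12). Fzd9, a receptor studied in hippocampal development, was at 3.02, 3.04 and 3.72 CPM in controls and 2.40, 2.44 and 2.28 CPM in stress. Its 3 stress libraries were nearly equal and below all controls, at -0.46 on the log2 scale (SE 0.22). Fzd8 was at 7.98, 7.34 and 6.48 CPM in controls and 4.91, 6.51 and 4.67 CPM in stress, so stress library 2 reached the lowest control, and its log2 fold change was -0.44 (SE 0.18). Fzd5 was the receptor with all stress libraries higher, at 2.18, 1.27 and 1.70 CPM in controls and 2.18, 2.79 and 2.59 CPM in stress, a log2 fold change of 0.57 (SE 0.28). Stress library 1 and control library 1 were almost equal for it, and in CPM without TMM scaling its groups overlapped. Fzd5 rests on 13 to 25 counts per library and shares exon sequence with Gm38058, a gene model on the opposite strand. The adjusted p-values of Fzd1, Fzd5, Fzd8 and Fzd9 ran from 0.573 to 0.633 by edgeR. Fzd2 at 0.24 (SE 0.21) and Fzd6 at -0.10 (SE 0.14) had overlapping groups and ran from 0.041 to 0.38 and from -0.19 to -0.043 with 1 library left out, and Fzd10, at 0 to 7 counts per library, was not tested. Over the 9 tested receptors the median log2 fold change was -0.10. The summed Frizzled level was 37.4 ± 2.21 CPM per kilobase in controls and 33.8 ± 2.42 in stress, and the groups overlapped.

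The co-receptor Lrp6 was measured at 9.74 ± 0.506 CPM per kilobase in controls and Lrp5 at 0.653 ± 0.108, so Lrp6 held 93.7% ± 1.24 of their sum. Lrp6 was at 137, 138 and 125 CPM in controls and 161, 117 and 125 CPM in stress, with a log2 fold change of 0.017 (SE 0.12). Stress library 1 was the highest, and without it the value was -0.13. Lrp5 had 0.29 (SE 0.22), and ran from 0.095 to 0.44 with 1 library left out, lowest without stress library 1. Znrf3 and Rnf43, ubiquitin ligases that remove Frizzled proteins from the surface, were at -0.025 (SE 0.11) and -0.28 (SE 0.29) on the log2 scale. Rnf43 ran from -0.54 to -0.10 with 1 library left out. Both had overlapping groups, and Znrf3 held 87.3% ± 2.63 of their summed level per kilobase in controls.

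Among the genes that act inside the cell, the groups overlapped for all tested members but Axin2 and Tcf7. Ctnnb1 was measured at 629, 624 and 618 CPM in controls and 608, 616 and 643 CPM in stress, a log2 fold change of -0.0027 (SE 0.06) whose sign changed with the scaling. At 120.1 ± 1.05 CPM per kilobase in controls it had the highest level of the 56, with Dkk3 in the same range. In the destruction complex, the scaffold Apc, at 38.7 ± 2.64 CPM per kilobase in controls, was at 0.036 (SE 0.09) on the log2 scale of stress minus control. The kinase gene Gsk3a, at 36.8 ± 1.26, had 0.11 (SE 0.07), and Gsk3b, at 27.0 ± 1.48, had -0.041 (SE 0.07). Axin1 had -0.063 (SE 0.09), and -0.021 without stress library 1. The Dishevelled genes Dvl1, Dvl2 and Dvl3 had log2 fold changes of 0.069 (SE 0.08), 0.056 (SE 0.13) and -0.034 (SE 0.20), and Dvl1 held 77.6% ± 2.13 of their summed level per kilobase in controls. The groups overlapped for each of these 8 genes, and exons of Ctnnb1, Gsk3a, Dvl1 and Dvl2, and of the receptor Fzd6, overlap a gene on the opposite strand.

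Axin2 is the member best known as a target of the pathway: beta-catenin induces it, and its product then restrains the signal. It lies on chromosome 11 from 108920349 to 108950783 and was at 35.4, 36.1 and 37.1 CPM in control libraries 1, 2 and 3 and 27.5, 35.0 and 30.8 CPM in stress libraries 1, 2 and 3. The controls were within a narrow range, all stress libraries were lower, and stress library 2 was just below the lowest control. The difference was -0.22 on the log2 scale (SE 0.10, edgeR adjusted p = 0.611), and -0.14 without stress library 1. Axin2 exons overlap the antisense gene Gm11670. Tcf7, a TCF factor, was near the limit of the test with 7 to 13 counts per library. It was at 1.57, 1.17 and 1.38 CPM in controls and 0.763, 1.05 and 1.14 CPM in stress, a log2 fold change of -0.47 (SE 0.31). Tcf7l1 had 3 to 10 counts per library and was not tested.

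Promoter windows from RefSeq (build GRCm38.p6, 250 bases before to 50 after a start) were found for 37 of the 56 genes, 43 windows in all. The letters ATCAAAG, the core of the site that TCF and LEF factors bind, were searched on both strands. They were in 2 of the 43 windows, or 4.65%, and in 3.73% of all 32851 windows, so the share was near that of promoters at large. The windows with a match belong to Wnt11 and to 1 of the 3 starts of Wnt5b. The 250 bases before the start are shown for Wnt2, the tested member with the largest positive log2 fold change, for Axin2, the feedback target, and for the Wnt5b start with a match. They lie at chr6:18030446-18030695 on the minus strand for Wnt2, chr11:108920099-108920348 on the plus strand for Axin2 and chr6:119449387-119449636 on the minus strand for Wnt5b. Each is written 5′ to 3′ on the strand of its gene, and capitals mark the match, which reads on the opposite strand. The RefSeq start of Wnt2 lies inside the gene as GENCODE draws it, and that of Axin2 is the GENCODE start. The Wnt5b start shown also lies inside its gene, which GENCODE draws from 119432531 to 119544347. Another of the 3 Wnt5b starts, whose window holds no match, is the GENCODE start.
Wnt2: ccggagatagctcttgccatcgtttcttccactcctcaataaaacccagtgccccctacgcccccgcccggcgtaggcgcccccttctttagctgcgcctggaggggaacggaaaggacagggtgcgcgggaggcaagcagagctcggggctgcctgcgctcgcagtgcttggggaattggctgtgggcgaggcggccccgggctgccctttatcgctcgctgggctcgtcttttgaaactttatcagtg
Axin2: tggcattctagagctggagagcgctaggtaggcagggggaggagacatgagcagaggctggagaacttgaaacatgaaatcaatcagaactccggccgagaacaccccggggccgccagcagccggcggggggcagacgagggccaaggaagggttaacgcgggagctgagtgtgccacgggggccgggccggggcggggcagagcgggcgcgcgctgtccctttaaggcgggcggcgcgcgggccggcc
Wnt5b: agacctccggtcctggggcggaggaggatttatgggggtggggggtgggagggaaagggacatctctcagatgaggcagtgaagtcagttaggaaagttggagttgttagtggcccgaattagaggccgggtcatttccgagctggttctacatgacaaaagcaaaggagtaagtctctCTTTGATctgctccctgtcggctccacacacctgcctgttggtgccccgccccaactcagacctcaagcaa

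The Wnt2 and Axin2 stretches hold no match to these letters, and their GC content is 63.6% and 69.2%, against 55.6% for the Wnt5b stretch and medians of 68.0% over the 43 windows of Wnt genes and 52.4% over all windows.

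Many secreted inhibitors bind Wnt proteins or their co-receptors outside the cell. Dkk3, a divergent Dickkopf protein, held 96.3% ± 0.630 of the summed level per kilobase of the 11 genes grouped under this role in controls. Whether Dkk3 restrains Wnt signals in this tissue was not tested. Dkk3 was at 372, 399 and 416 CPM in controls and 415, 380.2 and 363 CPM in stress, or -0.035 on the log2 scale (SE 0.08), with groups that overlapped. Sfrp1, which binds Wnt proteins, was at 7.37, 4.90 and 5.84 CPM in controls and 10.4, 2.79 and 3.11 CPM in stress. Stress library 1 was the highest of the 6 and the other stress libraries were the lowest, so the log2 fold change of -0.15 (SE 0.43) became -1.01 without that library, with an adjusted p of 0.117 by edgeR. Dkkl1 was at 1.57, 1.47 and 1.38 CPM in controls and 0.763, 1.05 and 1.66 CPM in stress, a log2 fold change of -0.34 (SE 0.34) that was -0.10 without stress library 1 and -0.69 without stress library 3. Dkk2 had -0.49 (SE 0.51), and -0.10 without stress library 1 and -0.76 without control library 2. Notum, an enzyme that removes the lipid from Wnt proteins, had 0.43 (SE 0.35), and antisense genes overlap its exons. Without stress library 1 Notum was at 0.26, and it ran from 0.20 to 0.65 with 1 library left out. 6 inhibitors were not tested. Dkk4 was at 0 counts in all 6 libraries, Dkk1 had 1 to 3, Sfrp2 1 to 9, Sfrp4 7 to 12 and Wif1 2 to 11 counts per library, and Sfrp5 had 7, 4 and 4 counts in controls and 31, 0 and 1 in stress.

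Some members were higher in stress library 1 than in any other library. Fzd7 was at 17.5 CPM in stress library 1 against 5.58 to 8.39 CPM in the other 5, and its log2 fold change of 0.64 (SE 0.39) was 0.028 without that library. Fzd4, a receptor of blood vessels, was at 16.1 CPM in stress library 1 against 8.82 to 11.7 CPM in the other 5, with 0.14 (SE 0.23), and -0.17 without it. The 8 endothelial markers summed to 213 to 260 CPM in the other 5 and 220 CPM in stress library 1. Sfrp5 and Wnt11, both too low to be tested, had 31 and 7 counts there and at most 7 and 1 in any other library. In the same library the choroid plexus marker Sostdc1, itself a Wnt inhibitor, was at 16.0 CPM against 0.392 to 0.830 CPM in the other 5. The ependymal marker Foxj1 had 18.9 CPM against 1.45 to 3.72 CPM and the striatal marker Penk 169 CPM against 6.80 to 10.8 CPM. The granule marker Prox1 was lowest there, at 48.4 CPM against 92.3 to 132 CPM. The part of these tissues in the Wnt values was not tested. Over all 39 tested members, 10 were highest and 12 lowest in stress library 1, or 25.6% and 30.8%, against 25.7% and 25.2% of all tested genes.

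**Figure D4:**
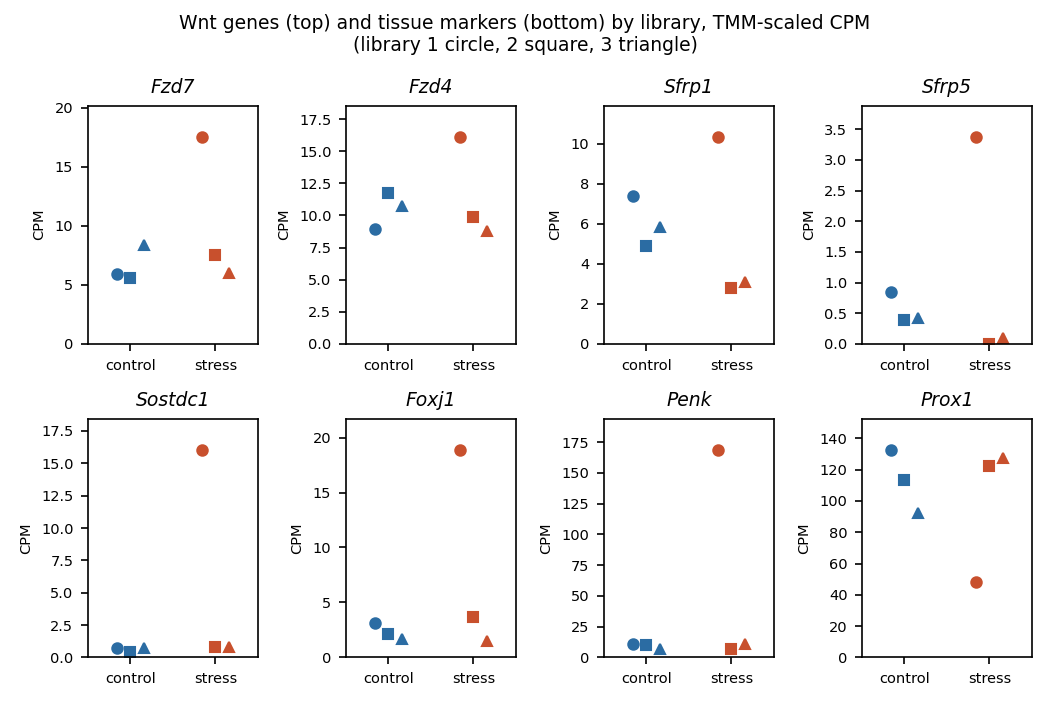
TMM-scaled CPM in each library for Fzd7, Fzd4, Sfrp1 and Sfrp5 (top) and for markers of choroid plexus (Sostdc1), ependyma (Foxj1), striatum (Penk) and granule neurons (Prox1) (bottom), with control libraries in blue and stress libraries in orange and each axis starting at 0. Stress library 1, the orange circle, is the highest for all genes but Prox1, where it is the lowest at 48.4 CPM.

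Other genes of the pathway were taken from a list of 79 symbols present in the tables, with secretion factors, other receptors and inhibitors, cytoplasmic and nuclear partners, planar polarity genes and known targets. 72 were tested and 0 passed by edgeR, against 0.0285% of all genes, and 0 by limma-voom, while DESeq2 called 1, the cyclin gene Ccnd1, against 0.761% of all genes. At an unadjusted p under 0.05, 6 were higher and 5 lower by edgeR, or 11 of 72 against 8.71% of all genes, and the median log2 fold change was -0.035. 6 had all stress libraries above all controls, against 6.76% of all genes, and 8 had all below, against 7.84%. Ccnd1, a target that drives entry into the cell cycle, was at 27.6, 30.4 and 27.8 CPM in controls and 50.7, 38.4 and 43.3 CPM in stress. The difference was 0.62 on the log2 scale (SE 0.12). The adjusted p was 0.202 by edgeR and 0.00739 by DESeq2, and Ccnd1 exons overlap LTO1 on the opposite strand. Without stress library 1 its log2 fold change was 0.51. Over the libraries left out 1 at a time it ran from 0.51 to 0.71, with edgeR adjusted p-values of 0.0603 to 0.686. The feedback target Axin2 was on the other side of 0, at -0.22. Of the 7 tested target genes on the list of 79, 2 had log2 fold changes above 0 and 5 below, with a median of -0.17. Among them, Id2 was at 72.0, 77.6 and 77.8 CPM in controls and 52.0, 69.4 and 65.5 CPM in stress. This is a log2 fold change of -0.28 (SE 0.11), and no stress library reached a control. Without stress library 1 the value for Id2 was -0.17.

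The nuclear partners lay on both sides of 0. Lef1, a factor that beta-catenin binds, was at 7.37, 4.99 and 6.27 CPM in controls and 3.49, 4.42 and 3.84 CPM in stress, a log2 fold change of -0.66 (SE 0.21). Its exons overlap the antisense gene Gm43352. Tcf7l2, another such factor, was at 4.35, 7.25 and 5.95 CPM in controls and 4.25, 3.60 and 3.22 CPM in stress, a log2 fold change of -0.67 (SE 0.24). For both, all stress libraries lay below all controls, and the adjusted p-values were 0.450 and 0.505 by edgeR. Both are known to be abundant in thalamus and habenula. The 11 other markers of those regions summed to 448 to 470.4 CPM in controls and 313 to 366 CPM in stress, 6 of the 9 tested had all stress libraries below all controls and 1 all above, and Gbx2 and Pou4f1 were at 0 counts in some libraries. The 10 neocortical markers summed to 1025 to 1104 CPM in controls and 821 to 973 CPM in stress, and the 12 astrocyte markers to 7910.0 to 8932 CPM in controls and 6923 to 7867 CPM in stress, none of these at 0 in any library. Of the neocortical markers, 6 had all stress libraries below all controls and 1, Crym, all above. For the astrocyte markers these counts were 5 and 0. The 10 neural progenitor markers summed to 144 to 152 CPM in controls and 135 to 141 CPM in stress. Of the 8 tested progenitor markers, 2 had all stress libraries below all controls and 1, Mki67, all above. Of the 11 fibroblast markers, 4 had all stress libraries below all controls and 0 all above. For the 8 endothelial markers these counts were 3 and 0, and for the 8 microglia markers 0 and 0. The part of tissue makeup, CA3 included, in Lef1, Tcf7l2 and the lower Wnt members was not tested. Tle3, a corepressor that TCF factors recruit, was at 20.7, 25.0 and 24.9 CPM in controls and 32.2, 28.6 and 31.5 CPM in stress, a log2 fold change of 0.39 (SE 0.11), with an adjusted p of 0.355 and all stress libraries above all controls.

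Among cytoplasmic partners, the casein kinase gene Csnk1a1, whose product primes beta-catenin for destruction, had a log2 fold change of 0.23 (SE 0.07) at 238, 251 and 252 CPM in controls and 312, 269 and 284 CPM in stress. Its relative Csnk1g2 had 0.18 (SE 0.07). Dact2, for a protein that binds Dishevelled, was at 26.1, 25.7 and 27.2 CPM in controls and 19.3, 22.0 and 22.5 CPM in stress, a log2 fold change of -0.31 (SE 0.10). The adjusted p-values of these 3 ran from 0.449 to 0.532 by edgeR, and the groups did not overlap for any of them. Wls, which carries Wnt proteins to the surface, differed by 0.038 on the log2 scale (SE 0.15), and -0.15 without stress library 1. Lgr4, a receptor for R-spondins, had -0.093 (SE 0.10), and both had overlapping groups. Of the 10 tested planar polarity genes none had an unadjusted p under 0.05 or groups without overlap.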

How the data were processed

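RNA of 6 libraries was prepared with a stranded kit after removal of ribosomal RNA, per the labels. The authors deposited whole-number counts for each gene symbol. Tools named in the submitters' processing notes are TopHat2 2.0.9 and HTSeq 0.6.1, and the build is GRCm38. Annotation and strand setting were not given in the sources used here: genes that overlap on opposite strands may share reads. Reads that the counting assigned to no gene (59.5% to 63.1%) or called ambiguous (0.211% to 0.253%) were left out.

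All genes were fitted in edgeR 4.0.16 (filterByExpr, TMM, quasi-likelihood F-test, two-sided, Benjamini-Hochberg over 14058 genes, threshold 0.05), and standard errors come from limma 3.58.1 voom. The fits were tested on simulated data. Positions, exon lengths and overlaps come from GENCODE M21 on GRCm38. Members and lists were chosen with earlier results of these data known. Genes were named by rule: members with an unadjusted p under 0.05, up to 8 without overlap between groups and the 3 highest of each role. Named too were up to 8 other pathway genes by p, plus Lef1, Tcf7l2, Wls, Lgr4 and Ccnd1. Per-library values are given for part of these genes, and for the rest the log2 fold change with its standard error. Values of other members were added to account for each. Alternatives were other scalings and filters, DESeq2 1.42.0, limma-voom, a replicate block, leaving out each library, and longest transcripts.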

Additional observations from a re-analysis of the deposited data

How the results depend on the processing

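No tested Wnt gene of the 56 passed under any alternative, and 478 of 507 alternative values of the 39 genes named by rule kept their direction and side of the threshold. The count of all genes called was 4 by edgeR, 107 by DESeq2, 1 by limma-voom, 0 with a replicate block and 0 to 41 without 1 library. Other pathway genes called numbered 0 by edgeR and 1 by DESeq2, Ccnd1 at 0.63. Wnt genes at an unadjusted p under 0.05 numbered 1 to 7 and their median log2 fold change was -0.10 to -0.0091 without 1 library. For Ctnnb1 the log2 fold change was 0.00023 with relative log expression scaling, 0.0028 when genes needed a CPM of 1 in 3 libraries and 0.00028 with DESeq2. Direction also changed with 1 library left out for these genes, whose log2 fold changes then ran over these ranges: Porcn -0.036 to 0.11, Sfrp1 -1.01 to 0.16, Znrf3 -0.075 to 0.082, Dvl2 -0.020 to 0.17, Dvl3 -0.21 to 0.17, Wls -0.15 to 0.15, Wnt7a -0.12 to 0.0057, Wnt7b -0.35 to 0.051, Dkk3 -0.091 to 0.012, Lrp6 -0.13 to 0.11, Apc -0.059 to 0.10, Gsk3b -0.084 to 0.014, Ctnnb1 -0.022 to 0.014. The same held for 2 members outside the naming rule, Wnt9a from -0.31 to 0.39 and Fzd4 from -0.17 to 0.32, and Wnt9a was at 0.060 with limma-voom and 0.0051 with the block. The cause was not tested. The count of Wnt genes without overlap was 10 under each scaling, unscaled CPM included, which was chosen after seeing the data. The genes were not all the same. In unscaled CPM the groups of Fzd5 overlapped, and Fzd8 instead had all stress libraries below all controls, by a narrow margin. Libraries share replicate numbers, and the deviations of same-numbered libraries correlated at 0.14, -0.00332 and 0.0468. Those of differently numbered libraries correlated at -0.154 to 0.121. With 3 libraries a group these values cannot settle whether the numbers mark pairs. The main fit did not take them as pairs, and the replicate block was an alternative. With the block, 4 Wnt genes had an unadjusted p under 0.05 against 6 without it, where 9.24% and 8.71% of all genes did. Low counts limit the 17 untested genes and those near them, such as Tcf7 and Wnt9b.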
